A study of Homo sapiens with 6 samples.

Results

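Keratin genes of 3 classes were followed in HaCaT keratinocytes (KCs) overexpressing miR-21-3p. The basal class was KRT5, KRT14 and KRT15, the activated class KRT6A, KRT6B, KRT16 and KRT17, and the simple class KRT7, KRT8 and KRT18. Members were taken by gene name from the deposited table of 22152 genes, where 8 of the 10 listed genes had a row, all 3 basal, 2 of the 4 activated and all 3 simple members. KRT6B and KRT17 were not analysed here. HaCaT is an immortalized line of human skin KCs that grows as a monolayer. Both groups received a synthetic miRNA at 1 nM and were harvested after 48 h, and each group held 3 biological replicates. One group was given a negative control mimic (NC), and the other a mimic of miR-21-3p, the passenger strand of the miR-21 hairpin. Polyadenylated RNA was sequenced per the sample labels, and the comparison asked how transcript levels differed when KCs carried the miR-21-3p mimic.

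Keratins are the intermediate filament proteins of epithelial cells, and each filament is built from pairs of an acidic type I and a basic type II chain. Dividing cells at the base of the epidermis make KRT5 with KRT14 and KRT15. Wounding and inflammation, psoriasis among them, add KRT6 with KRT16 and KRT17, and simple epithelia such as gut and gland linings use KRT8 with KRT18 and KRT7. Cells that leave the basal layer turn to KRT1 with KRT10. In the GENCODE 29 annotation (GRCh38) the type II genes lie on chromosome 12, the type I genes KRT14, KRT15, KRT16 and KRT17 lie on chromosome 17, and KRT18 is the type I gene that lies on chromosome 12 next to KRT8.

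Values are normalized counts, that is, the reads of a gene divided by a size factor of its library, with 3 significant digits in the table. The reads behind each library came to 24406408, 24527245 and 26176101 in NC replicates 1, 2 and 3, and to 24804418, 24974095 and 27962619 in miR-21-3p replicates 1, 2 and 3. Each member other than KRT16 had at least 3734 reads in each library, and counting error weighed most for KRT16, with 214 to 236 reads per library. A gene was tested where at least 3 of the 6 libraries reached a normalized count of 10, and it was called at a Benjamini-Hochberg adjusted p below 0.05 in limma.

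Of the 8 keratins, 3 were called higher in KCs overexpressing miR-21-3p, 1 was called lower and 4 were not called, while 10.8% of the 14795 genes tested were called in either direction, 6.11% higher and 4.66% lower. The higher keratins were KRT6A, KRT8 and KRT18, and the lower one was KRT15. The groups of 3 libraries did not overlap for 5 of the 8 keratins, the 4 called and KRT7, and for 31.3% of the genes tested. Each class held at least 1 member that was called and at least 1 that was not, and differences between members were not tested. Some calls were lost when 1 library was left out. Without NC replicate 3 or without miR-21-3p replicate 1, KRT6A alone of the 8 keratins was still called. Without NC replicate 1 or without miR-21-3p replicate 3, 3 of the 8 were called, KRT8 not among them. Over all genes, 1593 were called with the 6 libraries, 542 without NC replicate 1, 2957 without NC replicate 2, 176 without NC replicate 3, 277 without miR-21-3p replicate 1 and 365 without miR-21-3p replicate 3.

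**Figure D1:**
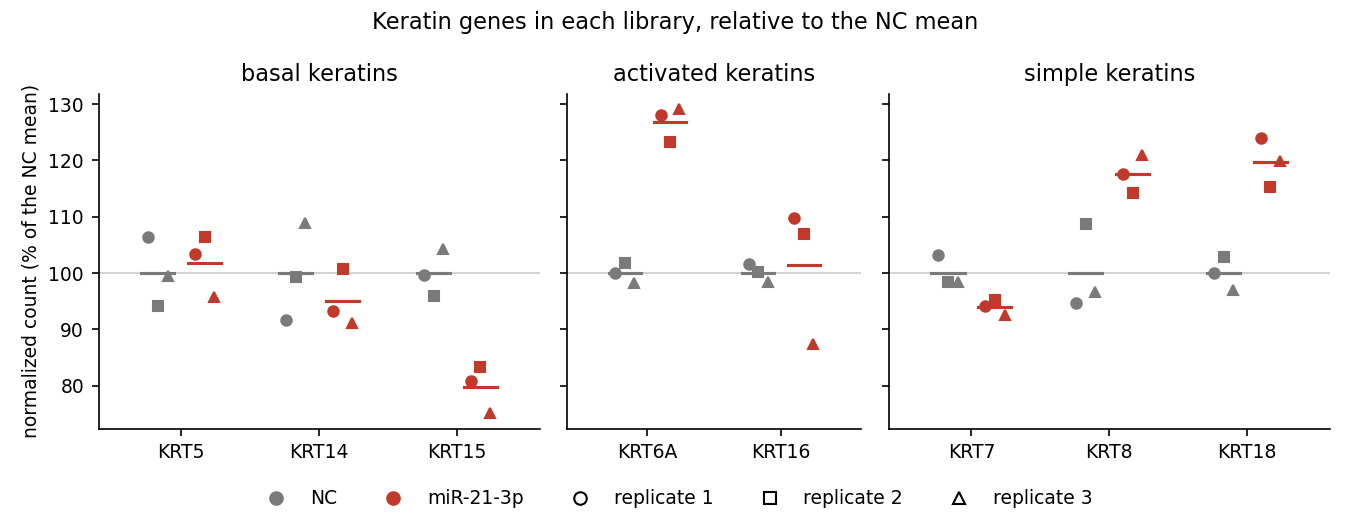
Normalized counts of the 8 keratins in each library as a percentage of the NC mean of the same gene, with NC in grey, miR-21-3p in red, symbols for the replicates and bars for the group means. The miR-21-3p libraries of KRT6A lie between 123% and 129%, those of KRT15 between 75.1% and 83.3%, and the groups of KRT5, KRT14 and KRT16 overlap.

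Among the basal keratins, KRT15, a type I keratin of basal cells and of the hair follicle bulge, was lower after miR-21-3p overexpression. KRT15 (ENSG00000171346.9) had 95100, 91500 and 99500 normalized counts in the NC libraries and 77100, 79400 and 71600 in the miR-21-3p libraries. Each miR-21-3p library lay below each NC library. The means were 95367 ± 4007 (SD, n = 3) and 76033 ± 4008 (SD, n = 3), a fold of 0.797, and the log2 fold change was -0.33 (SE 0.06, adjusted p = 0.0104). The call was lost without NC replicate 3 (adjusted p = 0.0687) and without miR-21-3p replicate 1 (adjusted p = 0.0565), and over 15 alternatives the log2 fold change ranged from -0.36 to -0.28 and the adjusted p from 4.59e-07 to 0.0687. In a bulk culture, fewer cells making a keratin and less of its RNA per cell cannot be told apart.

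KRT5, the type II chain of the basal pair, did not differ between the groups beyond the spread of the replicates. KRT5 (ENSG00000186081.7) had 139000, 123000 and 130000 normalized counts in the NC libraries and 135000, 139000 and 125000 in the miR-21-3p libraries. Both groups spanned nearly the same range. The log2 fold change was 0.03 with a 95% interval from -0.13 to 0.18 (adjusted p = 0.841). It turned to -0.02 without NC replicate 2 and -0.01 without miR-21-3p replicate 2, and the range over 15 alternatives was -0.02 to 0.07.

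KRT14, the type I partner of KRT5, was not called either. KRT14 (ENSG00000186847.5) had 33500, 36300 and 39800 normalized counts in the NC libraries and 34100, 36800 and 33300 in the miR-21-3p libraries. NC replicate 3 was the highest of the 6 libraries, and the groups overlapped. The log2 fold change was -0.07 with a 95% interval from -0.21 to 0.07 (adjusted p = 0.513). It was -0.13 without NC replicate 1, -0.01 without NC replicate 3, -0.11 without miR-21-3p replicate 2 and -0.04 without miR-21-3p replicate 3. KRT15 was therefore the basal member that passed the test.

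Among the activated keratins, KRT6A, a type II keratin that wounded and psoriatic KCs add to their filaments, was higher after miR-21-3p overexpression. KRT6A (ENSG00000205420.6) had 16800, 17100 and 16500 normalized counts in the NC libraries and 21500, 20700 and 21700 in the miR-21-3p libraries. The replicates of each group lay close together, and the 3 miR-21-3p libraries stood above the 3 NC libraries. The means were 16800 ± 300.0 (SD, n = 3) and 21300 ± 529 (SD, n = 3), a fold of 1.27, and the log2 fold change was 0.34 (SE 0.04, adjusted p = 0.00208). KRT6A was called under each of 16 alternatives, with log2 fold changes from 0.33 to 0.36 and adjusted p from 3.47e-10 to 0.0284.

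KRT6A has near copies, so the gene to which a read belongs can be uncertain. The coding sequence of KRT6A has 1692 bases without the stop codon, of which 35 differ from KRT6C and 42 from KRT6B. Of all windows of 50 bases along the KRT6A transcript, 39.1% were also found in transcripts of other genes, 35.2% in KRT6C and 28.5% in KRT6B. The 60 bases of exon 2 in which the copies differ most are shown (GRCh38, GENCODE 29, minus strand, each 5′ to 3′). Capitals mark the 9 positions where the 3 genes are not all the same, and KRT6C differs from KRT6A at 5 of them. A read is easiest to assign in such a stretch, and hardest where the copies are identical. The windows lie at chr12:52491555-52491614 for KRT6A, at chr12:52450439-52450498 for KRT6B and at chr12:52472099-52472158 for KRT6C.
KRT6A: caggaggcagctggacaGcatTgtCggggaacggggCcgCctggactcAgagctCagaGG
KRT6B: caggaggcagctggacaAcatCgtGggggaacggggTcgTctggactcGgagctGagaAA
KRT6C: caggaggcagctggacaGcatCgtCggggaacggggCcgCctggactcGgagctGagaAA

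KRT6C, the copy with a row of its own, had far fewer reads. Its normalized counts were 153, 155 and 162 in the NC libraries and 41.8, 186 and 170 in the miR-21-3p libraries. miR-21-3p replicate 1 stood apart from the other 5 libraries, and KRT6C was not called (log2 fold change -0.51, SE 0.41, adjusted p = 0.442). Without that library the log2 fold change turned to 0.18, and it was -0.88 without miR-21-3p replicate 2 and -0.82 without miR-21-3p replicate 3. With all 6 libraries it was -0.24 in edgeR with TMM and in DESeq2. Summing KRT6A and KRT6C gave a log2 fold change of 0.34 (adjusted p = 0.00217 in limma). With so few KRT6C counts this sum could hardly differ from KRT6A alone, and KRT6B was not in it. The sum therefore cannot show to which copy shared reads were assigned.

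KRT16, the type I keratin that pairs with KRT6, was rare in these KCs. KRT16 (ENSG00000186832.4) had 223, 220 and 216 normalized counts in the NC libraries and 241, 235 and 192 in the miR-21-3p libraries. The NC libraries fell inside the range of the miR-21-3p libraries, of which replicate 3 was the lowest. The log2 fold change was 0.01 with a 95% interval from -0.21 to 0.24 (adjusted p = 0.951). It turned to -0.05 without miR-21-3p replicate 1 and -0.03 without miR-21-3p replicate 2, and it was 0.12 without miR-21-3p replicate 3.

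KRT14 and KRT16 are near copies too. Of the 50-base windows of KRT14, 23.8% were found in other genes, 11.2% in KRT16, and 22.0% of those of KRT16 were found in other genes, 13.0% in its pseudogene KRT16P3 and 11.3% in KRT14. The 60 bases of exon 6 in which KRT14, KRT16 and KRT17 differ least show how alike the copies can be, with capitals at the 2 positions that are not the same in all 3 (GRCh38, GENCODE 29, minus strand, each 5′ to 3′). They lie at chr17:41583248-41583307 for KRT14, at chr17:41610344-41610403 for KRT16 and at chr17:41620672-41620731 for KRT17. With KRT16 added to KRT14, the log2 fold change was -0.07 (adjusted p = 0.516 in limma). KRT16 was too rare beside KRT14 for this sum to differ much, so it does not check the assignment of reads.
KRT14: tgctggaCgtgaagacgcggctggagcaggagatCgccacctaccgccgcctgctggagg
KRT16: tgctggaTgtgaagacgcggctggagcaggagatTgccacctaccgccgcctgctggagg
KRT17: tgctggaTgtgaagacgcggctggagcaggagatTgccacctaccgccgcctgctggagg

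**Figure D2:**
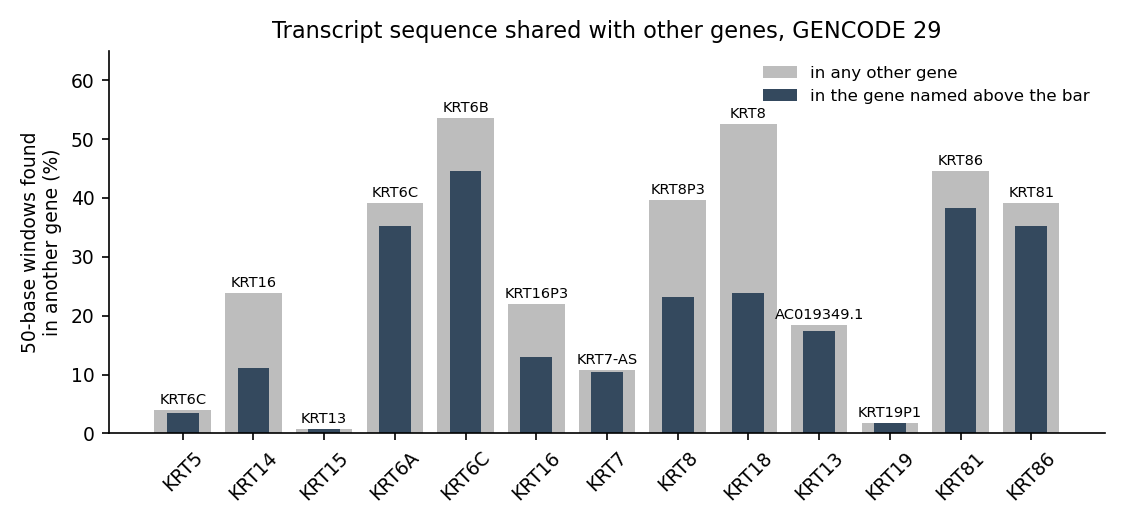
Percentage of the 50-base windows of each transcript that also occur, on either strand, in transcripts of any other gene (grey) and in the gene named above the bar (dark), for 13 keratin genes of GENCODE 29. KRT5, KRT15 and KRT19 share at most 3.99% of their windows, while KRT6A shares 39.1%, KRT8 39.7% and KRT18 52.5%.

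Among the simple keratins, KRT8 and KRT18, the obligate pair of simple epithelia, were both higher after miR-21-3p overexpression. KRT8 (ENSG00000170421.7) had 14000, 16100 and 14300 normalized counts in the NC libraries and 17400, 16900 and 17900 in the miR-21-3p libraries. NC replicate 2 was the NC library nearest to the miR-21-3p libraries, but the groups did not overlap. The means were 14800 ± 1136 (SD, n = 3) and 17400 ± 500.0 (SD, n = 3), a fold of 1.18, and the log2 fold change was 0.24 (SE 0.06, adjusted p = 0.0221). Over 16 alternatives the log2 fold change of KRT8 ranged from 0.20 to 0.30 and its adjusted p from 0.000936 to 0.112. It was not called without NC replicate 1 (adjusted p = 0.0841), NC replicate 3 (0.112), miR-21-3p replicate 1 (0.0931) or miR-21-3p replicate 3 (0.0850).

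KRT18 (ENSG00000111057.6), the type I partner, had 3890, 4000 and 3770 normalized counts in the NC libraries and 4820, 4480 and 4660 in the miR-21-3p libraries. Again all 3 miR-21-3p libraries exceeded the NC libraries. The means were 3887 ± 115 (SD, n = 3) and 4653 ± 170.1 (SD, n = 3), a fold of 1.20, and the log2 fold change was 0.26 (SE 0.05, adjusted p = 0.00847). The call was lost without NC replicate 3 (adjusted p = 0.0572) and without miR-21-3p replicate 1 (adjusted p = 0.0565), and over 16 alternatives the adjusted p ranged from 0.000233 to 0.0572.

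KRT7, a type II keratin of glands and ducts, went the other way by a small amount that did not pass the test. KRT7 (ENSG00000135480.10) had 19300, 18400 and 18400 normalized counts in the NC libraries and 17600, 17800 and 17300 in the miR-21-3p libraries. All 3 miR-21-3p libraries were below the NC libraries. The log2 fold change was -0.09 with a 95% interval from -0.19 to 0.01 (adjusted p = 0.199).

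KRT8 and KRT18 have many processed pseudogenes, and their own exons overlap on opposite strands in GENCODE 29. Of the 50-base windows of KRT8, 39.7% were found in other genes, 23.2% in the pseudogene KRT8P3, and of those of KRT18, 52.5% were found in other genes, 23.8% in KRT8. KRT8P3 itself was called higher (log2 fold change 0.26, SE 0.07, adjusted p = 0.0320), with 2680, 3310 and 3000 normalized counts in the NC libraries and 3380, 3680 and 3700 in the miR-21-3p libraries. Its groups did not overlap, and reads of the gene and of the copy were not separated here. KRT8P3 was not called without NC replicate 1 (adjusted p = 0.0991), NC replicate 3 (0.108) or miR-21-3p replicate 1, 2 or 3 (0.0690, 0.0715 and 0.112), over a range from 0.00137 to 0.112 in 15 alternatives. Adding the 14 KRT8 pseudogene rows to KRT8 gave a log2 fold change of 0.22 (adjusted p = 0.0284), and adding the 9 KRT18 pseudogene rows to KRT18 gave 0.27 (adjusted p = 0.00754). Whether the counting used the strand of the reads is not given in the sources used here, so reads from the overlap of KRT8 and KRT18, or of KRT7 with its antisense gene, may have gone to either gene or to none.

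**Figure D3:**
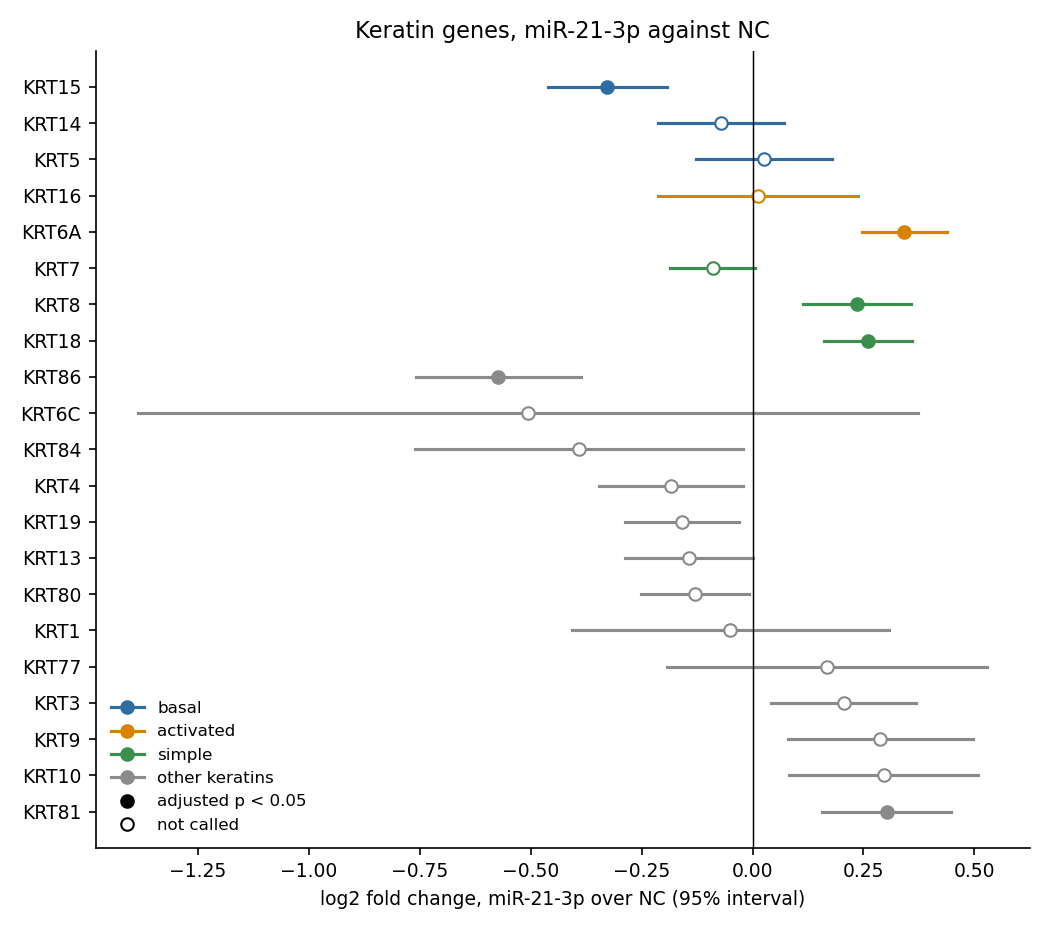
Log2 fold changes of the 21 tested keratin genes other than pseudogenes, miR-21-3p over NC, with 95% intervals from limma, where basal members are blue, activated orange, simple green and other keratins grey, and filled points mark genes called at an adjusted p below 0.05. The filled points are KRT15 at -0.33, KRT6A at 0.34, KRT8 at 0.24, KRT18 at 0.26, KRT86 at -0.57 and KRT81 at 0.30.

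By class, the median log2 fold change was -0.07 for the 3 basal members, 0.18 for the 2 activated members and 0.24 for the 3 simple members, against 0.00 for all genes tested. The basal median was -0.13 without NC replicate 1, -0.01 without NC replicate 3, -0.11 without miR-21-3p replicate 2 and -0.04 without miR-21-3p replicate 3. The summed basal counts were 267600, 250800 and 269300 in the NC libraries and 246200, 255200 and 229900 in the miR-21-3p libraries. These sums overlapped between the groups, and KRT5 was the largest part of each. The activated sums were 17023, 17320 and 16716 in NC and 21741, 20935 and 21892 after miR-21-3p overexpression, and nearly all of them came from KRT6A. The simple sums were 37190, 38500 and 36470 in NC and 39820, 39180 and 39860 after miR-21-3p overexpression. They did not overlap, although KRT7 lay lower in each miR-21-3p library. As shares of all counts, basal members took 1.03% ± 0.03 (SD, n = 3) in NC and 0.96% ± 0.04 (SD, n = 3) after miR-21-3p overexpression, activated members 0.0670% and 0.0850%, and simple members 0.147% and 0.156%. Taking all 8 members together, the sum was 316973 ± 8972 (SD, n = 3) in NC and 304909 ± 12087 (SD, n = 3) after miR-21-3p overexpression, a ratio of 0.962 that lay within the spread of the libraries.

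Ratios between keratins of the same library do not depend on how libraries were scaled to each other, and they are given here as a description without a test. The ratio of KRT8 to KRT18 counts was 3.60 to 4.03 in the NC libraries and 3.61 to 3.84 in the miR-21-3p libraries, so both rows were higher by about the same factor. Of the 50-base windows of KRT18, 23.8% were found in KRT8. Reads from there may have gone to either gene, which limits what this ratio shows. The ratio of KRT5 to KRT14, the basal pair, was 3.27 to 4.15 in NC and 3.75 to 3.96 after miR-21-3p overexpression, also with overlap. In contrast, the log2 ratio of KRT5 to KRT15 was 0.55, 0.43 and 0.39 in the NC libraries and 0.81, 0.81 and 0.80 in the miR-21-3p libraries. This ratio was nearly constant in the miR-21-3p group and lay above every NC value. The log2 ratio of KRT15 to KRT14, both type I chains, was 1.51, 1.33 and 1.32 in NC and 1.18, 1.11 and 1.10 after miR-21-3p overexpression. Thus KRT15 was lower relative to both of its basal companions in each library.

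The log2 ratio of KRT6A to KRT16 was 6.24, 6.28 and 6.26 in the NC libraries and 6.48, 6.46 and 6.82 in the miR-21-3p libraries. The NC values were tight, and replicate 3 with its low KRT16 gave the highest ratio. The log2 ratio of KRT6A to KRT5 was -3.05, -2.85 and -2.98 in NC and -2.65, -2.75 and -2.53 after miR-21-3p overexpression, so that KRT6A lay higher relative to the main basal keratin. The log2 ratio of KRT7 to KRT18 was 2.31, 2.20 and 2.29 in NC and 1.87, 1.99 and 1.89 after miR-21-3p overexpression. KRT7 thus lay lower relative to KRT18 in each miR-21-3p library than in any NC library.

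**Figure D4:**
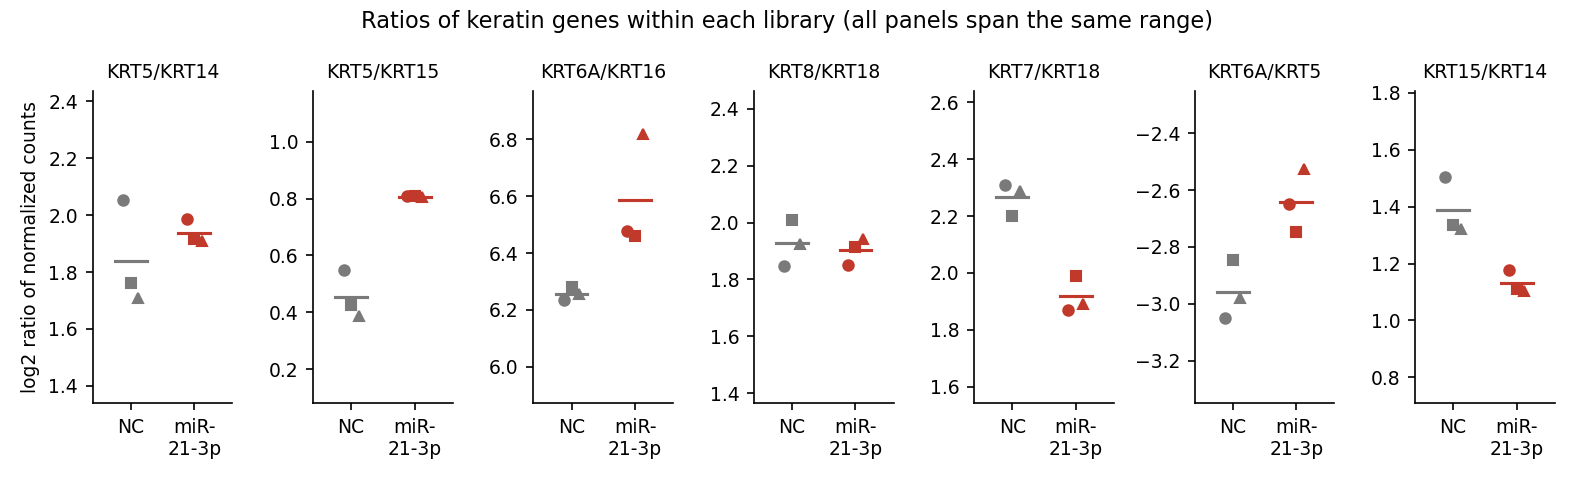
Log2 ratios of normalized counts between keratin genes within each library, with NC in grey, miR-21-3p in red, symbols for the replicates and bars for the group means. The groups do not overlap for KRT5/KRT15, KRT6A/KRT16, KRT7/KRT18, KRT6A/KRT5 and KRT15/KRT14, and they overlap for KRT5/KRT14 and KRT8/KRT18.

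Levels can be compared between genes only per length, and the principal GENCODE 29 transcript was used for this. Among the members, KRT5 had the highest level in NC with 51627 ± 3169 (SD, n = 3) normalized counts per kb, followed by KRT15 with 39836 ± 1674 (SD, n = 3) and KRT14 with 21982 ± 1899 (SD, n = 3). The differences between these neighbours were larger than their spread. KRT7 followed with 10661 ± 296 (SD, n = 3), KRT8 with 8433 ± 647 (SD, n = 3), KRT6A with 7273 ± 129.9 (SD, n = 3) and KRT18 with 2737 ± 81.0 (SD, n = 3). KRT16 came last with 134 ± 2.14 (SD, n = 3) per kb, although its partner KRT6A was abundant. The order was the same per kb of coding sequence, except that KRT5 at 73823 ± 4532 (SD, n = 3) and KRT15 at 69713 ± 2929 (SD, n = 3) then lay within their spread, as did KRT8 at 10214 ± 784 (SD, n = 3) and KRT6A at 9929 ± 177 (SD, n = 3). Over the union of all annotated exons, KRT15 (13491 per kb) fell below KRT14 (16016 per kb), and KRT6A (5738 per kb) rose above KRT7 (4569 per kb) and KRT8 (2151 per kb). In the miR-21-3p libraries KRT7, KRT8 and KRT6A came close together per kb of transcript, KRT7 and KRT8 within their spread, with 10015 ± 143 (SD, n = 3), 9915 ± 285 (SD, n = 3) and 9221 ± 229 (SD, n = 3).

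**Figure D5:**
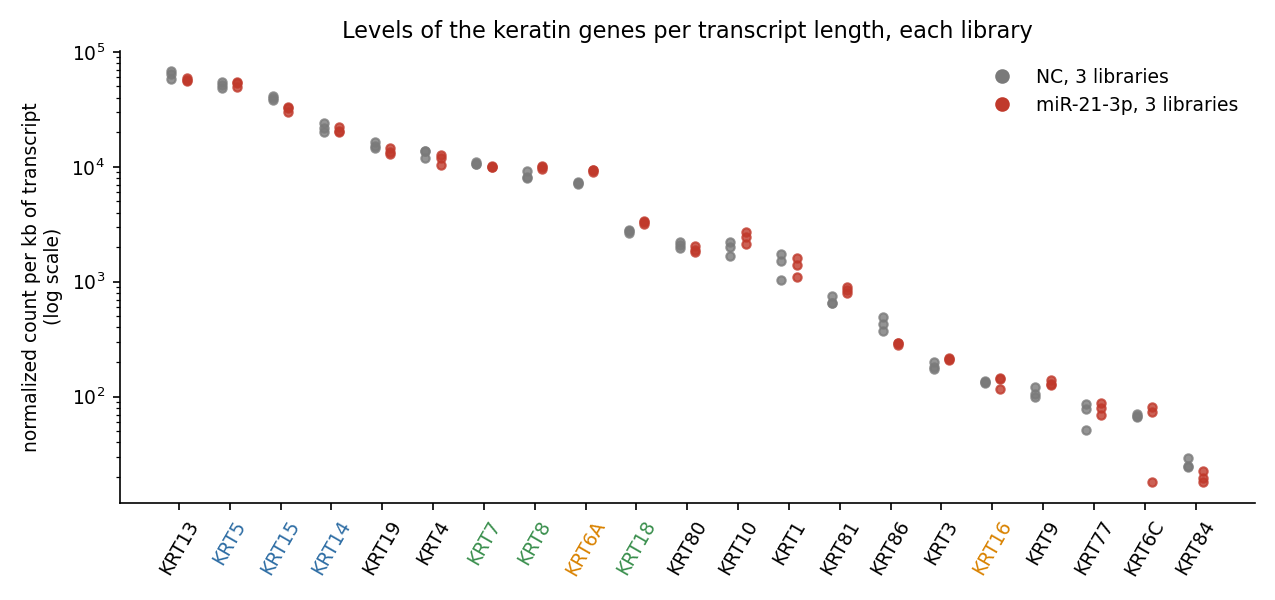
Normalized count per kb of the principal transcript, on a log scale, for the 21 tested keratin genes in each of the 6 libraries, with NC in grey, miR-21-3p in red and gene names in blue for basal, orange for activated and green for simple members. KRT13 and KRT5 are highest, and KRT16, the rarest member, lies near 134 per kb in NC.

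The other keratins of the table were described from lists of related genes. Of the 12 differentiation keratins listed, 8 had a row, and 0 of the 8 were called by limma, edgeR with TMM or DESeq2, while 3 higher and 2 lower had an unadjusted p below 0.05 in limma, as had 28.5% of all genes tested, 15.3% higher and 13.2% lower. Of all genes tested, edgeR with TMM called 11.2%, 5.99% higher and 5.19% lower. DESeq2 called 11.1% of 14300 genes, 6.11% higher and 4.99% lower, which is 9.41% of the 16874 genes entered. Without NC replicate 2, when 20% of all genes tested were called, 3 of the 8 were called, KRT4 lower (adjusted p = 0.0182), KRT9 higher (0.0168) and KRT80 lower (0.0395). KRT10, the type I keratin of the spinous layer, had 4300, 3530 and 4750 normalized counts in the NC libraries and 5700, 5170 and 4520 in the miR-21-3p libraries, with overlap (log2 fold change 0.30, adjusted p = 0.0736, and 0.0486 to 0.267 over 15 alternatives). Its log2 fold change was 0.18 without NC replicate 2. KRT1, its type II partner, had 4280, 2530 and 3730 in NC and 3940, 3460 and 2670 after miR-21-3p overexpression (log2 fold change -0.05, adjusted p = 0.870). The log2 fold change of KRT1 was -0.27 without NC replicate 2, and it turned to 0.11 without NC replicate 1, 0.01 without NC replicate 3 and 0.11 without miR-21-3p replicate 3. Neither partner of the differentiation pair was called, and KRT1 spread widely within both groups. The abundant mucosal keratin KRT13 stood at 107433 ± 7865 (SD, n = 3) in NC and 97167 ± 2479 (SD, n = 3) after miR-21-3p overexpression, and it was not called (log2 fold change -0.14, adjusted p = 0.180, and -0.09 without NC replicate 1).

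Of the 33 other keratins listed, 6 had a row and 5 were tested. Among these 5, 1 was called higher and 1 lower, where limma called 6.11% of all genes tested higher and 4.66% lower. Both were hair keratin genes that are near copies of each other. KRT86 had 1030, 786 and 900 normalized counts in the NC libraries and 586, 614 and 614 in the miR-21-3p libraries (log2 fold change -0.57, SE 0.09, adjusted p = 0.00438). KRT81 had 1260, 1460 and 1260 in NC and 1640, 1540 and 1720 after miR-21-3p overexpression (log2 fold change 0.30, SE 0.07, adjusted p = 0.0176). KRT86 was called under all 15 alternatives. KRT81 was not called without NC replicate 1 (adjusted p = 0.0623), NC replicate 3 (0.0911), miR-21-3p replicate 1 (0.0779) or miR-21-3p replicate 3 (0.0765), over a range from 0.000737 to 0.0911 in 15 alternatives. The pair went in opposite directions although 38.4% of the 50-base windows of KRT81 were found in KRT86, and their loci overlap each other, and that of KRT86 the locus of KRT7, so these values are uncertain. KRT19, a type I keratin without the usual tail domain, had 22800, 20900 and 20100 in NC and 18800, 20300 and 18000 after miR-21-3p overexpression (log2 fold change -0.16, adjusted p = 0.0999), and it was called without miR-21-3p replicate 2 (adjusted p = 0.0494, and 0.0494 to 0.304 over 15 alternatives). Its pseudogene KRT19P1 was called lower, with 501, 530 and 472 in NC and 415, 432 and 382 after miR-21-3p overexpression (log2 fold change -0.29, adjusted p = 0.0339). That call was lost without NC replicate 1, 2 or 3 (adjusted p = 0.0860, 0.0534 and 0.0793) and without miR-21-3p replicate 1 or 3 (0.106 and 0.129), over a range from 0.0299 to 0.129 in 15 alternatives. Of 15 tested keratin pseudogenes, KRT8P3 and KRT19P1 were the only ones called with all 6 libraries, and the median log2 fold change of the list was 0.26.

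Of 17 other intermediate filament genes listed, 9 had a row and were tested. Limma called 6 of the 9 higher and 0 lower, with a median log2 fold change of 0.40. Limma called 6.11% of all genes tested higher and 4.66% lower. DESeq2, which called 6.11% of its genes higher and 4.99% lower, gave 7 higher and 0 lower. So did an unadjusted p below 0.05 in limma, reached by 15.3% of all genes higher and 13.2% lower. The 6 called by limma were the nuclear lamins LMNB1 (2127 ± 253 in NC and 2977 ± 204 after miR-21-3p overexpression, SD, n = 3, log2 fold change 0.49, adjusted p = 0.00518) and LMNB2 (log2 fold change 0.36, adjusted p = 0.0173), and the filament proteins NES, NEFL, INA and SYNM, known best from nerve, muscle and progenitor cells (log2 fold changes of 0.40, 0.40, 0.81 and 0.45). INA had the fewest counts of them, with 34.4, 46.4 and 40.0 normalized counts in NC and 76.5, 57.4 and 81.7 after miR-21-3p overexpression, without overlap. LMNB1 and NEFL were called under all 15 alternatives. Without NC replicate 1 or miR-21-3p replicate 3, 3 of the 9 were called, with 3.66% and 2.47% of all genes tested, and without NC replicate 3 or miR-21-3p replicate 1, 2 were, with 1.19% and 1.87% of all genes. NES then had an adjusted p of 0.0572 and 0.0516 (0.000543 to 0.0572 over 15 alternatives), and LMNB2, INA and SYNM reached 0.0881, 0.0893 and 0.163 at most.

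Keratin filaments are anchored at desmosomes between cells and at hemidesmosomes on the basement membrane. Of 18 anchoring genes, 1 was called higher and 3 lower, with a median log2 fold change of 0.00. Of all genes tested, 6.11% were called higher and 4.66% lower. PKP2, a desmosomal plakophilin of simple epithelia, had 2090, 2110 and 2030 normalized counts in NC and 2610, 2650 and 2400 after miR-21-3p overexpression (log2 fold change 0.30, adjusted p = 0.00713). The lower genes were PLEC and DST, which encode plakins, and ITGB4, which encodes an integrin chain of hemidesmosomes. Their log2 fold changes were -0.16 for PLEC (adjusted p = 0.0295), -0.17 for DST (adjusted p = 0.0295) and -0.26 for ITGB4 (adjusted p = 0.0385), and the groups overlapped for ITGB4. Other hemidesmosome genes of the list were not called, ITGA6 with a log2 fold change of -0.03 (adjusted p = 0.690), COL17A1 with -0.09 (0.229) and CD151 with 0.03 (0.667). PLEC, DST and ITGB4 were not called without NC replicate 1 (adjusted p = 0.0876, 0.0892 and 0.143), NC replicate 3 (0.119, 0.123 and 0.135), miR-21-3p replicate 1 (0.133, 0.0857 and 0.145) or miR-21-3p replicate 3 (0.0837, 0.112 and 0.139). PKP2 was not called without NC replicate 3 (0.0528). Over 15 alternatives the ranges were 0.00661 to 0.133 for PLEC, 0.00897 to 0.123 for DST, 0.00212 to 0.145 for ITGB4 and 0.00018 to 0.0528 for PKP2.

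Of 14 filament regulators, limma called PRKCD (log2 fold change -0.38, adjusted p = 0.0122) and TRIM29 (-0.28, adjusted p = 0.0261) lower. It called the kinase AKT1 (0.17, adjusted p = 0.0346) higher, and DESeq2 also called SFN higher (adjusted p = 0.0295). Limma called 6.11% of all genes tested higher and 4.66% lower, and DESeq2 called 6.11% and 4.99% of its genes. PRKCD encodes a protein kinase C that acts in KC differentiation, and TRIM29 a protein that binds KRT14. Of 32 listed transcription factors known to act on keratin genes, 31 had a row and were tested. MYC was called higher, with 3180, 2730 and 2740 normalized counts in NC and 3760, 3860 and 3590 after miR-21-3p overexpression (log2 fold change 0.38, adjusted p = 0.00554). STAT3, which carries IL-22 signals in KCs, was called lower, with 4540, 4230 and 4410 in NC and 3930, 3960 and 3690 after miR-21-3p overexpression (log2 fold change -0.19, adjusted p = 0.0281). The other 29 factors were not called by limma or by edgeR with TMM, which called 10.8% and 11.2% of all genes tested. The median of the list was -0.01. DESeq2 called 2 higher and 2 lower, adding FOSL1 (adjusted p = 0.0451) and JUND (0.0449). Without NC replicate 2, 9 of the 31 factors were called, with 20% of all genes tested, and without miR-21-3p replicate 2, 4 were, with 10.4% of all genes tested. MYC was called under all 15 alternatives. STAT3 and TRIM29 were not called without NC replicate 1 (adjusted p = 0.0876 and 0.102), NC replicate 3 (0.114 and 0.111), miR-21-3p replicate 1 (0.0902 and 0.104) or miR-21-3p replicate 3 (0.112 and 0.106). AKT1 was not called without NC replicate 1 (0.0577), NC replicate 3 (0.167) or miR-21-3p replicate 1, 2 or 3 (0.126, 0.0554 and 0.110), and PRKCD was not called without NC replicate 3 (0.0620). The ranges over 15 alternatives were 0.00890 to 0.114 for STAT3, 0.00126 to 0.111 for TRIM29, 0.0181 to 0.167 for AKT1 and 0.000271 to 0.0620 for PRKCD.

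Proliferation genes and markers of other cell types were set beside the keratins. Of 10 proliferation genes, 9 were called higher and 0 lower by limma and by edgeR with TMM, and the median log2 fold change was 0.38. Limma called 6.11% of all genes tested higher and 4.66% lower, and edgeR with TMM 5.99% and 5.19%. DESeq2 (6.11% of its genes higher, 4.99% lower) and an unadjusted p below 0.05 in limma (15.3% of all genes higher, 13.2% lower) each gave 10 higher and 0 lower. Without NC replicate 3, 4 of the 10 were called, with 1.19% of all genes tested, and MKI67 (adjusted p = 0.0574, and 1.72e-05 to 0.0574 over 15 alternatives) and BUB1 (0.0556, and 0.000119 to 0.0556) were not among them. MKI67, a marker of cycling cells, had 22300, 27600 and 24700 normalized counts in NC and 31600, 30800 and 34300 after miR-21-3p overexpression (log2 fold change 0.38, adjusted p = 0.0104). CDK1, CCNB1, BIRC5, CCNA2 and BUB1 had log2 fold changes of 0.42, 0.44, 0.40, 0.39 and 0.39. As for KRT8, NC replicate 2 was the NC library nearest to the miR-21-3p libraries for MKI67. This was not particular to these genes. On the first principal component of all genes tested, NC replicate 2 lay at -1.95, and NC replicates 1 and 3 at -21.3 and -13.3. The miR-21-3p libraries lay at 6.86 to 17.8. The part of cycling cells in the keratin values was not tested.

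The label of the cells was checked against markers. All 9 KC markers had a row, and KRT5 and KRT14 among them are basal members already described. By limma, edgeR with TMM or DESeq2, 0 of the 9 were called. At an unadjusted p below 0.05 in limma 1 was lower, TP63, against 13.2% of all genes tested. Their summed counts were 351190, 331780 and 351180 in NC and 345560, 359920 and 328560 after miR-21-3p overexpression, with KRT5 the most abundant. Of the simple epithelium markers, 3 of the 5 listed had a row, and their sums were 11850, 12953 and 12060 in NC and 13764, 14340 and 14902 after miR-21-3p overexpression. CLDN4, the most abundant, and EPCAM were called higher (log2 fold changes 0.25 and 0.18, adjusted p = 0.0184 and 0.0283), as KRT8 and KRT18 were, and MUC1 was not called. CLDN4 and EPCAM were not called without NC replicate 1 (adjusted p = 0.0670 and 0.0854), NC replicate 3 (0.0966 and 0.0831) or miR-21-3p replicate 3 (0.0778 and 0.0895), nor EPCAM without miR-21-3p replicate 1 or 2 (0.0922 and 0.0620). The ranges over 15 alternatives were 0.00147 to 0.0966 for CLDN4 and 0.0145 to 0.0922 for EPCAM. The part of these genes in the simple keratin values was not tested. Many markers of other cell types had no row, which does not show that they were absent. Those with a row had low counts. COL1A1 was the 1 fibroblast gene of 8 with a row, with 560, 390 and 478 in NC and 372, 378 and 364 after miR-21-3p overexpression. Its groups did not overlap, limma did not call it (log2 fold change -0.34, adjusted p = 0.0641, unadjusted p = 0.00845) and DESeq2 called it lower. MITF and PMEL were the melanocyte genes with a row, of 7, with sums of 585 to 640, and CD14, at 80.1 on average, was the immune gene with a row, of 6. Of 4 endothelial markers, VWF (745 on average) and CDH5 had a row, and CDH5 was called lower (477, 286 and 393 in NC and 165, 178 and 122 after miR-21-3p overexpression, log2 fold change -1.30, adjusted p = 0.00262), without overlap.

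Finally, the genes whose values over the 6 libraries were most like the mean log2 level of each class were sought among 10127 other genes. For the basal class they were PCYOX1, CAMK2N1 and HELZ, with Pearson r of 0.999, 0.998 and 0.996. For the activated class they were TMSB4XP6, UROS and FGFBP1, with r of 0.994, 0.993 and 0.992. FGFBP1 encodes a secreted carrier of fibroblast growth factors. For the simple class they were RTTN, TDRKH and DONSON, with r of 0.997, 0.996 and 0.996. These r describe likeness over 6 points that share their libraries, for the highest of many genes.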

How the data were processed

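Polyadenylated RNA of 3 NC and 3 miR-21-3p libraries was prepared with a stranded mRNA kit per the labels, which were followed, while the methods of the published study speak of small RNA libraries. The submitters' processing notes name bcl2fastq 2.18.12, cutadapt 1.15, TopHat2 2.1.1, featureCounts of Subread 1.5.2 and DESeq2. The genome build and annotation release are not given in the sources used here. The deposited values are a normalized signal, gene counts that the authors divided by 1 size factor per library and wrote with 3 significant digits, which leaves a rounding error of at most 0.5%. Low values of each library were whole multiples of 1 step: 100% of the values up to 20 steps came out whole within a tolerance of 0.1 of a step, so reads were recovered by division.

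Because the values were normalized and not raw counts, the edgeR test planned for counts was replaced by limma 3.58.1 (R 4.3.3) with an intensity trend on log2(normalized count + 1), no covariate and Benjamini-Hochberg adjustment over 14795 genes with a value of at least 10 in at least 3 libraries. Fold changes are thus on that log2 scale, which understates the change of low genes. edgeR 4.0.16 with TMM on the recovered reads, run as an alternative added after seeing the data, called 1653 genes. The test was checked on simulated data. DESeq2 1.42.0, other scaling factors, other pseudocounts, no filter, sums of near copies, a replicate block and leaving out each library were also tried.

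Named genes were the members, up to 6 called genes with the largest change of each list, KRT1, KRT10, KRT19 and KRT6C in any case, and 3 genes per class with the highest correlation among genes of at least 10 CPM. KRT13, KRT4, KRT9, KRT80, FOSL1, JUND, SFN, ITGA6, COL17A1, CD151 and the named markers were chosen after their values were seen, as were the ratios of KRT5 to KRT15, KRT6A to KRT5 and KRT15 to KRT14. The members and lists were chosen with earlier results of these data known. Lists and classes were described by counts and medians, without a test. Shared windows of 50 bases, gene lengths and printed sequences came from GENCODE 29 (GRCh38), with Python 3.11.15. Gene identifiers carry older versions than GENCODE 29 and were matched by symbol.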

Additional observations from a re-analysis of the deposited data

How the results depend on the processing

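KRT6A, KRT8, KRT18 and KRT15 kept their direction and their calls under the 9 settings that kept all 6 libraries: no filter on low values, 3 scalings in edgeR, DESeq2, the replicate block, pseudocounts of 0.1 and 5, and rescaling by TMM. The edgeR fit with TMM, both pseudocounts and the TMM rescaling were chosen after seeing the data. The other 4 members were called under none of the alternatives. Under these settings the number of called genes lay between 1193 and 1653. In edgeR, upper-quartile factors gave 796 higher and 838 lower genes, against 886 and 767 with TMM. The main limma test gave 904 and 689.

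Leaving out each library in turn gave 176 to 2957 called genes, 95 to 1627 higher and 81 to 1330 lower. Of the 8 keratin members, 1 to 4 were then called, 1 to 3 higher and 0 to 1 lower. The median log2 fold change of the simple members then ranged from 0.20 to 0.28. Removing 1 library leaves fewer samples in the fit. The calls lost beyond this depended on which library was left out, and the cause was not tested.

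With the replicate block, 1193 genes were called, 681 higher and 512 lower, of which 1135 were also called without it. Among the 1193 were 4 of the 8 keratin members. For libraries with the same number, deviations from the group means correlated at -0.002, -0.20 and -0.16. For libraries with different numbers the correlations ran from -0.13 to 0.27. Such deviations are not independent within a group of 3, so they cannot show whether libraries were paired. PLEC, DST, ITGB4, AKT1, STAT3 and EPCAM were not called with the block, and KRT10 passed the threshold with the block (adjusted p = 0.0486, from 0.0486 to 0.267 over its 15 alternatives).

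The 3 replicates of a group limit what can be seen: KRT16, with a standard error of 0.10, is read against a 95% interval from -0.21 to 0.24. Shared sequence limits KRT6A, KRT14, KRT16, KRT8 and KRT18, whose reads may be split between copies.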
